A study of Homo sapiens with 5 samples.

Results

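The human mitochondrial genome carries 37 genes, and all of them were taken as members here, namely every gene whose symbol starts with MT- in the GENCODE annotation (release 29). They are 13 genes for mRNAs, 2 for rRNAs and 22 for tRNAs, out of 40263 gene identifiers listed in the count files of the series. RNA was sequenced from 2 replicates of 501Mel cells, a human melanoma line, and 3 replicates of Hermes 3A cells, an immortalised line of human melanocytes. Cells of both lines had received a lentiviral shRNA against BPTF (shBPTF), the largest subunit of the chromatin remodeler NURF, and 5 days of puromycin at 3 µg/ml. Which of the study's shBPTF constructs was sequenced is not given in the sources used here. Libraries with a control shRNA were not analysed here, so that every difference given is between the shBPTF-treated lines and not an effect of BPTF loss. Hermes 3A medium also held TPA, cholera toxin, stem cell factor and endothelin-1, and line and medium cannot be told apart.

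Mitochondrial DNA is transcribed from both of its strands, in long precursors that run around much of the circle. Enzymes then cut out the tRNAs, which lie between most of the other genes, and thereby free the mRNAs and rRNAs. All of the encoded proteins are subunits of respiratory complexes I, III and IV or of the ATP synthase (complex V), where they are assembled with many subunits encoded in the nucleus. The genes are divided in the text by the precursor they belong to. By annotation, 12 mRNAs, both rRNAs and 14 tRNAs are transcripts of the heavy strand, and MT-ND6 with 8 tRNAs are transcripts of the light strand. This grouping was chosen after the values were seen.

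The libraries held between 30073071 and 43032311 counts. rRNA was removed with capture probes and abundant cDNA was reduced with a duplex-specific nuclease before sequencing. Levels of abundant RNAs, the mitochondrial rRNAs among them, may also reflect these steps, and their part in the results was not tested. The files of the lines listed different gene sets, 37259 genes for 501Mel and 34033 for Hermes 3A, and 31029 genes stood in all 5 files. All 37 members were listed for Hermes 3A and 35 for 501Mel, where MT-TN and MT-TS1 had no entry. The melanocyte lineage markers MITF, SOX10, PMEL, MLANA, TYR, TYRP1 and DCT had at least 307 counts in every library, but their levels differed between the lines. DCT had 45970 and 49226 counts in 501Mel and 307, 361 and 393 in Hermes 3A. In the edgeR comparison described below, DCT was called higher in 501Mel, SOX10, PMEL, MLANA and TYR were called lower, and MITF and TYRP1 were not called. Of 5 keratinocyte markers, KRT5 and KRT1 were not listed in any file, KRT14 had at most 1 count, TP63 had from 2 to 24 counts and KRT10 from 1290 to 1975. Of 6 fibroblast markers, COL1A2 had 3 and 4 counts in 501Mel and 2893, 7359 and 5631 in Hermes 3A, COL1A1 had 281 and 28 against 19, 43 and 16, and LUM had 359 and 88 against 306, 46 and 29, while COL3A1, PDGFRB and DCN had at most 52, 14 and 7 counts in any library. BPTF itself had 2832 and 2189 counts in 501Mel and 1906, 2110 and 1628 in Hermes 3A, and without control libraries these counts do not check the knockdown.

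The light-strand tRNAs stood apart from the other members, and the sequences of those encoded side by side between MT-ND2 and MT-CO1, with MT-TS1 just beyond MT-CO1, are shown so that they can be set beside their levels. They are GENCODE 29 sequences of the mitochondrial chromosome of GRCh38, read 5′ to 3′ on the light-strand transcript, without the added CCA end, and the capitals mark the anticodon. MT-TA (alanine) lies at 5587 to 5655, MT-TN (asparagine) at 5657 to 5729, MT-TC (cysteine) at 5761 to 5826, MT-TY (tyrosine) at 5826 to 5891 and MT-TS1 (serine) at 7446 to 7514.
MT-TA: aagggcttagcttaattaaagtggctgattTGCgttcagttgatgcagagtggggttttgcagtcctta
MT-TN: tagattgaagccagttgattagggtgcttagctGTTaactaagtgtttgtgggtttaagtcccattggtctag
MT-TC: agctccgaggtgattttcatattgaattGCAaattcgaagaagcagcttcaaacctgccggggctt
MT-TY: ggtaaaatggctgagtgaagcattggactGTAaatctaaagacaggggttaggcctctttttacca
MT-TS1: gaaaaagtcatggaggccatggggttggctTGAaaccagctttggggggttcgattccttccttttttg

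Mitochondrial transcripts took a larger share of the 501Mel libraries. The 37 genes together held 6.14% and 6.74% of all counts in 501Mel and 3.26%, 2.85% and 2.75% in Hermes 3A, or 6.44% ± 0.424 (SD, n = 2) against 2.95% ± 0.272 (SD, n = 3), a ratio of 2.18. The libraries of the lines did not overlap. In bulk RNA, more mitochondrial genomes per cell and more RNA per genome cannot be told apart, nor can fewer cells of a type and less RNA per cell.

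The mRNAs held 4.82% and 5.28% of counts in 501Mel and 2.96%, 2.41% and 2.33% in Hermes 3A, a ratio of means of 1.97. The rRNAs held 1.31% and 1.44% against 0.272%, 0.405% and 0.388%, a ratio of 3.87. For both classes the libraries of the lines did not overlap. The sum over the tRNAs was 0.0166% and 0.0220% in 501Mel and 0.0289%, 0.0305% and 0.0338% in Hermes 3A, a ratio of 0.621, and it rested on 3 genes. Without MT-TN and MT-TS1, which had no entry for 501Mel, the Hermes 3A values were 0.0187%, 0.0225% and 0.0248%, which overlapped with 501Mel, and without MT-TA as well they were 0.0122%, 0.0150% and 0.0164%, below both 501Mel libraries. The direction of the tRNA sum therefore turned with these genes, whose removal was chosen after the values were seen. For all members, mRNAs, rRNAs and the full tRNA sum the two-sided exact permutation test gave p = 0.2 (adjusted p = 0.2), the smallest p that 2 against 3 libraries can give, so that this test cannot pass a threshold of 0.05. Wilson 95% intervals of single libraries were narrow, from 6.14% to 6.15% for all members in 501Mel replicate 1, and cover counting error only.

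Gene by gene, levels were compared with edgeR's quasi-likelihood test over the 17975 genes that were listed in all files and passed its filter on low counts, and a gene was called at a Benjamini-Hochberg adjusted p under 0.05. CPM here are relative to library totals adjusted by TMM, edgeR's scaling between libraries, whereas the shares above are of raw counts. Of the members, 33 could be tested, since MT-TN and MT-TS1 lacked an entry and MT-TQ and MT-TD did not pass the filter. In 501Mel 20 of the 33 were higher and 3 lower, while 10 were not called. Of all genes tested, 24.2% were called higher and 24.0% lower. At least 2-fold higher and called were 16 members, against 17.2% of all genes. Both 501Mel libraries lay above all Hermes 3A libraries for 26 of the 33, against 35.7% of all genes, and below them for 4, against 34.0%. The median log2 fold change (501Mel over Hermes 3A) was 1.03 over the 33 members and 0.02 over all genes tested. The number of members called higher depended on single libraries. It was 14 without 501Mel replicate 1 and 12 without 501Mel replicate 2. Without Hermes 3A replicates 1, 2 and 3 in turn it was 23, 12 and 8. Of all genes tested, 2864 of 18725 were called higher without 501Mel replicate 1 and 3379 of 19074 without 501Mel replicate 2. Without Hermes 3A replicates 1, 2 and 3 in turn they were 4595 of 17757, 3271 of 17485 and 3178 of 17634. The labels do not say that replicates came from separate cultures, and the p-values measure the spread between these libraries, which may be technical.

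The members were then divided by strand. Of the 27 heavy-strand transcripts tested, 26 had a positive log2 fold change, 20 were called higher and 1, MT-TK, lower, with a median of 1.18 (20 of the 27 were positive when the mitochondrial mRNAs served as library size, as given further on). Of the 6 light-strand transcripts tested, 1 had a positive log2 fold change, none was called higher in 501Mel by edgeR or by DESeq2, and 2, MT-TA and MT-TE, were called lower, with a median of -0.34. Of all 17975 genes tested by edgeR, 9171 had a positive log2 fold change, 24.2% were called higher and 24.0% lower.

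**Figure D1:**
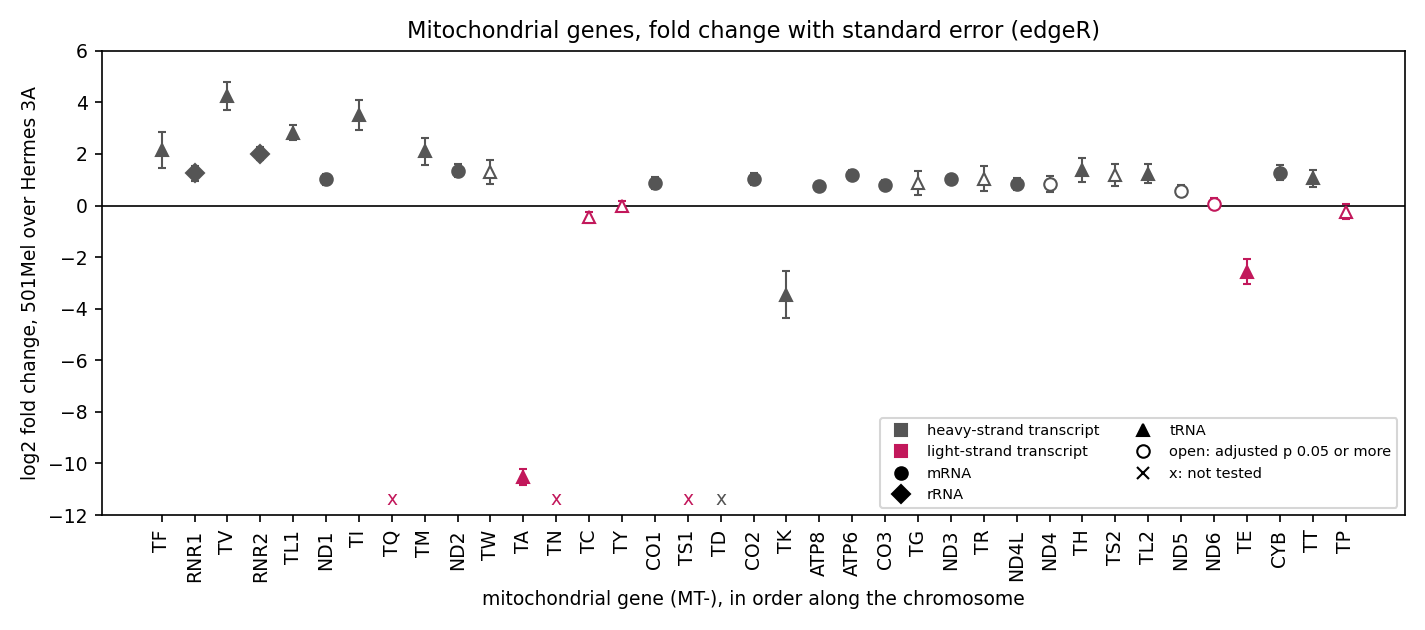
Log2 fold change of 501Mel over Hermes 3A (edgeR, bars are standard errors) for the mitochondrial genes in their order along the chromosome, by strand of the transcript (colour) and class of RNA (symbol), with open symbols for genes that were not called and crosses for the 4 that were not tested. On the scale of all counts, heavy-strand transcripts lie above 0 except MT-TK, and light-strand transcripts lie at or below 0 except MT-ND6, which is at 0.08.

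Complex I, or NADH dehydrogenase, passes electrons from NADH into the respiratory chain, and 7 of its subunits are mitochondrially encoded. MT-ND1 (ENSG00000198888) was measured at 2091 and 2964 CPM in 501Mel and at 1305, 1317 and 1119 CPM in Hermes 3A, with a log2 fold change of 1.02 ± 0.21 (SE) and an adjusted p of 0.00701. MT-ND2, at 2026 and 2855 against 1233, 818 and 818 CPM, differed by 1.35 ± 0.26 (adjusted p = 0.00492), the largest value among the 13 mRNAs. MT-ND3, at 717 and 926 against 455, 400 and 370 CPM, differed by 1.01 ± 0.18 (adjusted p = 0.00356). In each of these 3 genes the lowest 501Mel library was above the highest Hermes 3A library. MT-ND4L, at 1192 and 1316 against 914, 590 and 601 CPM, was higher in 501Mel as well, by 0.84 ± 0.23 (adjusted p = 0.0206). The call of MT-ND1 was lost without Hermes 3A replicate 3 (adjusted p = 0.0540), and that of MT-ND4L when any 1 library except Hermes 3A replicate 1 was left out (adjusted p between 0.0579 and 0.111).

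The remaining subunits of complex I were not called. MT-ND4, at 6834 and 8286 CPM in 501Mel and 5944, 3475 and 3359 CPM in Hermes 3A, had a log2 fold change of 0.83 ± 0.31 (adjusted p = 0.0622). MT-ND5 had 3400 and 3272 against 2735, 1972 and 1981 CPM and a log2 fold change of 0.58 ± 0.22 (adjusted p = 0.0655). For both genes the libraries of the lines did not overlap, and Hermes 3A replicate 1 was the nearest to the 501Mel libraries. Without that library both were called higher in 501Mel (adjusted p = 0.00557 for MT-ND4 and 0.0120 for MT-ND5). MT-ND6, the only protein-coding gene of the light strand, had 791 and 762 CPM in 501Mel, which lay between the 926 CPM of Hermes 3A replicate 1 and the 648 and 637 CPM of replicates 2 and 3. Its log2 fold change was 0.08 ± 0.21 (adjusted p = 0.787), and it was the sole mRNA of the 13 whose libraries overlapped between lines.

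Complex III takes electrons from ubiquinol to cytochrome c, and cytochrome b is its subunit of mitochondrial origin. MT-CYB had 3426 and 5279 CPM in 501Mel against 2297, 1644 and 1472 CPM in Hermes 3A, with a log2 fold change of 1.27 ± 0.28 (adjusted p = 0.00909). The 501Mel replicates were further apart than for most mRNAs, and both were above Hermes 3A. The call was lost without 501Mel replicate 2 (adjusted p = 0.0577) and without Hermes 3A replicate 3 (adjusted p = 0.0597).

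Complex IV, cytochrome c oxidase, reduces oxygen, and its catalytic core is built from mitochondrially encoded subunits. MT-CO1 (ENSG00000198804), which carries the site of oxygen reduction, had 12968 and 12252 CPM in 501Mel and 7716, 6240 and 6735 CPM in Hermes 3A, with a log2 fold change of 0.87 ± 0.24 (adjusted p = 0.0202). It was the gene with the most counts of all in both 501Mel libraries and ranked 3 in each of the Hermes 3A libraries. MT-CO2, which receives the electrons from cytochrome c, had 5210 and 5226 against 3221, 2131 and 2320 CPM and differed by 1.03 ± 0.24 (adjusted p = 0.0113). MT-CO3 had 4147 and 4505 against 2441, 2573 and 2377 CPM and differed by 0.81 ± 0.19 (adjusted p = 0.0108). In these 3 genes the libraries of the lines did not overlap. The call of MT-CO1 was lost when any 1 library except Hermes 3A replicate 1 was left out (adjusted p between 0.0548 and 0.160), that of MT-CO2 without Hermes 3A replicate 2 or 3 (0.0558 and 0.0874), and that of MT-CO3 without Hermes 3A replicate 3 (0.0966).

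Complex V makes ATP from the proton gradient, and MT-ATP6 and MT-ATP8 encode parts of its membrane sector. MT-ATP6 had 2727 and 3358 CPM in 501Mel against 1554, 1270 and 1188 CPM in Hermes 3A, a log2 fold change of 1.19 ± 0.21 (adjusted p = 0.00341). MT-ATP8 had 1115 and 1196 against 784, 672 and 622 CPM, a log2 fold change of 0.74 ± 0.17 (adjusted p = 0.0105). The call of MT-ATP6 held whichever library was left out, and that of MT-ATP8 was lost without 501Mel replicate 2 and without Hermes 3A replicate 2 or 3 (adjusted p between 0.0530 and 0.0803). These genes share 46 bases on the same RNA, at 8527 to 8572 of the mitochondrial chromosome of GRCh38, and reads there could be given to either gene. The shared stretch is printed with the start codon of MT-ATP6 in capitals.
MT-ATP8/MT-ATP6 overlap: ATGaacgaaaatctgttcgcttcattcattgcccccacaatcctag
MT-ND4L and MT-ND4 share 7 bases in the same manner.

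Across the 13 mRNAs, 10 were called higher in 501Mel by edgeR, with a median log2 fold change of 0.87. None was called lower by edgeR or by DESeq2. Of all genes tested, edgeR called 24.2% higher and 24.0% lower. The count of 10 was 8 without 501Mel replicate 1 and 6 without 501Mel replicate 2. Without Hermes 3A replicates 1, 2 and 3 in turn it was 12, 6 and 3. Of all genes, 3178 of 17634 were called higher without Hermes 3A replicate 3, and the numbers for the other fits are given above. All 13 log2 fold changes were positive with all 5 libraries. That of MT-ND6 was -0.06 without Hermes 3A replicate 2 and -0.07 without Hermes 3A replicate 3.

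Per length, the mRNAs spanned a similar range and nearly the same order in the lines. MT-CO1 was at 8178 ± 328 CPM per kb in 501Mel (SD, n = 2) and 4473 ± 487 in Hermes 3A (SD, n = 3), followed in both lines by MT-CO2 (7629 ± 16.8 and 3739 ± 852), MT-ATP8 (5582 ± 274 and 3346 ± 401), MT-CO3 (5518 ± 323 and 3143 ± 128) and MT-ND4 (5486 ± 745 and 3091 ± 1060). MT-ATP8, MT-CO3 and MT-ND4 differed from each other by less than the larger of their SDs in each line. At the lower end in 501Mel stood MT-ND5 (1841 ± 49.7) and MT-ND6 (1479 ± 40.2 CPM per kb). MT-ND6 ranked 13 of 13 in 501Mel and 9 of 13 in Hermes 3A, where it was at 1404 ± 312 CPM per kb, and the genes ranked 10 to 13 there were MT-ND1 (1304 ± 116), MT-ND5 (1230 ± 242), MT-ND3 (1180 ± 124) and MT-ND2 (918 ± 230). In Hermes 3A, MT-ND6 differed from the first 3 of these by less than its own SD.

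**Figure D2:**
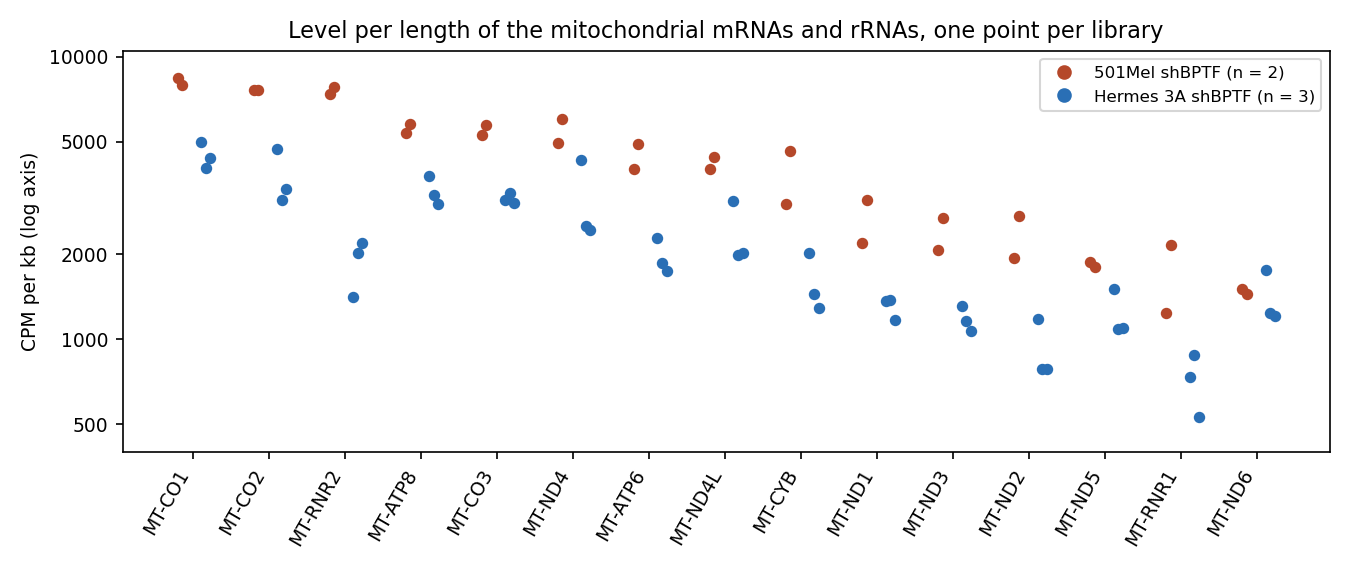
Level per length (CPM per kb of gene, log axis) of the 13 mitochondrial mRNAs and 2 rRNAs, with a point per library for 501Mel shBPTF (n = 2) and Hermes 3A shBPTF (n = 3), ordered by the 501Mel mean. The 501Mel points are above the Hermes 3A points for all genes but MT-ND6, where they lie among them, and the gap is widest for MT-RNR2.

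The balance within the mRNA pool was then described apart from its size. Complex IV mRNAs made up 44.99% ± 4.06 of the counts on the 13 mRNAs in 501Mel and 45.7% ± 3.02 in Hermes 3A, and complex I mRNAs 37.8% ± 1.76 and 39.8% ± 2.73, differences within the SDs. MT-ND6 made up 1.70% and 1.46% of the pool in 501Mel and 2.94%, 2.73% and 2.70% in Hermes 3A. Put against the 12 heavy-strand mRNAs, there were 1.73 and 1.48 MT-ND6 counts per 100 in 501Mel and 3.03, 2.81 and 2.78 in Hermes 3A, so that the ranges were far apart relative to the spread within each line. MT-ND5, the gene next to MT-ND6 on the other strand, made up 6.78% ± 0.721 against 8.46% ± 0.195. Whether the counting used strand is not given in the sources used here, and without it reads from the opposite precursor across a gene cannot be told apart from its own.

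When the summed counts of the 13 mRNAs were used as library size in the edgeR fit, in place of all counts, the median over all genes moved to -0.90 and each member was read against the mitochondrial pool. On that scale 4 members were called higher in 501Mel (MT-RNR2, MT-TV, MT-TL1 and MT-TI) and 7 lower, against 20 and 3 on the scale of all counts. Of all 17975 genes tested, 1616 were called higher and 9144 lower there, so a lower call was common on that scale. The 7 were MT-TK and all 6 light-strand members tested, among them MT-ND6 with a log2 fold change of -0.82 ± 0.20 (adjusted p = 0.00602), MT-TC with -1.41 and MT-TY with -0.96. MT-ND6 and MT-TY were thus near the median of all genes. None of the 12 heavy-strand mRNAs was called in either direction on that scale, and 7 of the 13 mRNAs had a negative log2 fold change there. Since these 13 mRNAs make up the scale, values of both signs around 0 among them were fixed in advance.

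The rRNAs of the mitochondrial ribosome, MT-RNR1 of the small and MT-RNR2 of the large subunit, were both called higher in 501Mel. MT-RNR1 (648 to 1601) had 1186 and 2054 CPM in 501Mel and 702, 840 and 507 CPM in Hermes 3A, a log2 fold change of 1.25 ± 0.30 (adjusted p = 0.0117), which was 0.78 without 501Mel replicate 2 and then not called (adjusted p = 0.0802). MT-RNR2 (1671 to 3229) had 11499 and 12142 against 2200, 3154 and 3430 CPM, a log2 fold change of 2.01 ± 0.27 (adjusted p = 0.00106), and was called whichever library was left out. With 7582 ± 291 CPM per kb in 501Mel, MT-RNR2 was at the level of MT-CO2, and with 1878 ± 414 in Hermes 3A it was below it. It had the second most counts of all genes in both 501Mel libraries and ranked 23, 9 and 8 in Hermes 3A. There were 27.2 and 27.2 rRNA counts per 100 mRNA counts in 501Mel and 9.21, 16.8 and 16.7 in Hermes 3A. The ratio of MT-RNR2 to MT-RNR1 counts varied within each line, with 9.69 and 5.91 in 501Mel and 3.13, 3.75 and 6.76 in Hermes 3A, and overlapped between them. rRNA was removed with probes before sequencing. Whether the probes covered these genes, and the part of this step in the values, was not tested.

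The tRNAs carry amino acids to the mitochondrial ribosome, and in these counts reads from mature tRNAs and from uncut precursors cannot be told apart. Of the 14 heavy-strand tRNAs, 13 were tested, 8 were higher in 501Mel and 1 lower, against 24.2% and 24.0% of all genes tested. The summed level of the 14 was 65.3 and 106 CPM in 501Mel and 23.5, 19.6 and 20.9 CPM in Hermes 3A. Those beside the rRNA genes and MT-ND1 had the largest log2 fold changes. MT-TV (valine), between the rRNA genes, had 200 and 495 counts in 501Mel and 15, 16 and 18 in Hermes 3A, a log2 fold change of 4.25 (adjusted p = 0.000911). MT-TL1 (leucine), directly after MT-RNR2, had 792 and 1252 against 141, 149 and 104 counts, a log2 fold change of 2.82 (adjusted p = 0.000417). MT-TI (isoleucine), directly after MT-ND1, had 183 and 228 against 30, 15 and 5 counts, a log2 fold change of 3.51 (adjusted p = 0.00289). Each of these 3 tRNAs had a larger log2 fold change than any mitochondrial mRNA or rRNA.

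MT-TF (phenylalanine), the first gene of the heavy-strand precursor, varied more, with 337 and 1146 counts in 501Mel and 56, 210 and 186 in Hermes 3A, a log2 fold change of 2.14 (adjusted p = 0.0397). It was 0.82 without 501Mel replicate 2 (adjusted p = 0.406), and the call was also lost when any 1 of the Hermes 3A libraries was left out (adjusted p between 0.0514 and 0.0721). MT-TM (methionine) had 54 and 50 counts in 501Mel and 18, 7 and 7 in Hermes 3A, with a log2 fold change of 2.11 (adjusted p = 0.0138). Nearer to the size of the mRNA differences were MT-TH (histidine, 1.37, adjusted p = 0.0389), MT-TL2 (leucine, 1.23, adjusted p = 0.02997) and MT-TT (threonine, 1.05, adjusted p = 0.0353). The calls of MT-TM, MT-TH, MT-TL2 and MT-TT were each lost without 501Mel replicate 1 or without Hermes 3A replicate 3 (adjusted p between 0.0508 and 0.242), those of MT-TH, MT-TL2 and MT-TT without Hermes 3A replicate 2 (between 0.113 and 0.146), and those of MT-TM and MT-TT without 501Mel replicate 2 (0.0638 and 0.176). MT-TW, MT-TG, MT-TR and MT-TS2 had log2 fold changes between 0.88 and 1.31 and were not called (MT-TW and MT-TS2 were without Hermes 3A replicate 1, with adjusted p = 0.0401 and 0.0216), and MT-TD had from 5 to 9 counts in every library. MT-TK (lysine), between MT-CO2 and MT-ATP8, was the exception in direction, with 2 and 1 counts in 501Mel and 30, 11 and 7 in Hermes 3A. Over the summed counts it was 12.015-fold lower in 501Mel, with a 95% interval of 3.87 to 60.3 for counting error, and its adjusted p of 0.0167 was 0.0845 without 501Mel replicate 1 and 0.101 without 501Mel replicate 2. Without Hermes 3A replicate 1 or replicate 2 it did not pass the filter on low counts.

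Among the 8 light-strand tRNAs, 3 had at most 2 counts or no entry in 501Mel while they had at least 1161 counts in each Hermes 3A library. MT-TA (ENSG00000210127) had 2 and 2 counts in 501Mel and 2721, 3056 and 2527 in Hermes 3A. Over the summed counts it was 1559-fold lower in 501Mel, with a 95% interval of 609 to 5723 for counting error, and it was called lower with an adjusted p of 4.9e-06. MT-TN and MT-TS1 had no entry in the 501Mel files and 1909, 1840 and 1538 counts, and 2312, 1433 and 1161 counts, in the Hermes 3A files, and no fold change is given for them. The other tRNAs of the same cluster, printed above with MT-TA and MT-TN, did not show such a gap.

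MT-TC had 933 and 1219 counts in 501Mel and 1352, 1392 and 1194 in Hermes 3A. In CPM it was at 21.0 and 31.8 against 34.6, 33.6 and 40.3, so that the lines did not overlap. Its log2 fold change was -0.45 ± 0.22 (adjusted p = 0.125), and it was called lower without 501Mel replicate 2 (-0.80). MT-TY had 1091 and 1251 against 1133, 1032 and 977 counts, with a log2 fold change of -0.02 ± 0.21 (adjusted p = 0.954). In Hermes 3A, MT-TA therefore stood at 201, 220 and 212 counts per 100 counts of its neighbour MT-TC, and in 501Mel at 0.214 and 0.164. The 1617 Hermes 3A identifiers with numbers above the highest of the 501Mel files show that the files of the lines were made with different gene lists, and the part of this in the values of MT-TA, MT-TN and MT-TS1 was not tested.

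Towards the other end of the light-strand precursor, MT-TE (glutamate), directly beside MT-ND6, had 33 and 53 counts in 501Mel and 326, 275 and 114 in Hermes 3A, with a log2 fold change of -2.56 ± 0.50 (adjusted p = 0.00517). MT-TP (proline), the first gene of that precursor, had 2174 and 1733 against 1336, 2626 and 2041 counts, with a log2 fold change of -0.24 ± 0.29 (adjusted p = 0.529) and overlapping libraries, and was called lower without Hermes 3A replicate 1 (-0.51, adjusted p = 0.0185). MT-TQ (glutamine) had 4 and 9 against 18, 6 and 2 counts and was not tested. Summed over MT-TC, MT-TY and MT-TP, the level was 94.5 and 110 CPM in 501Mel and 97.7, 122 and 142 CPM in Hermes 3A, with overlap.

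**Figure D3:**
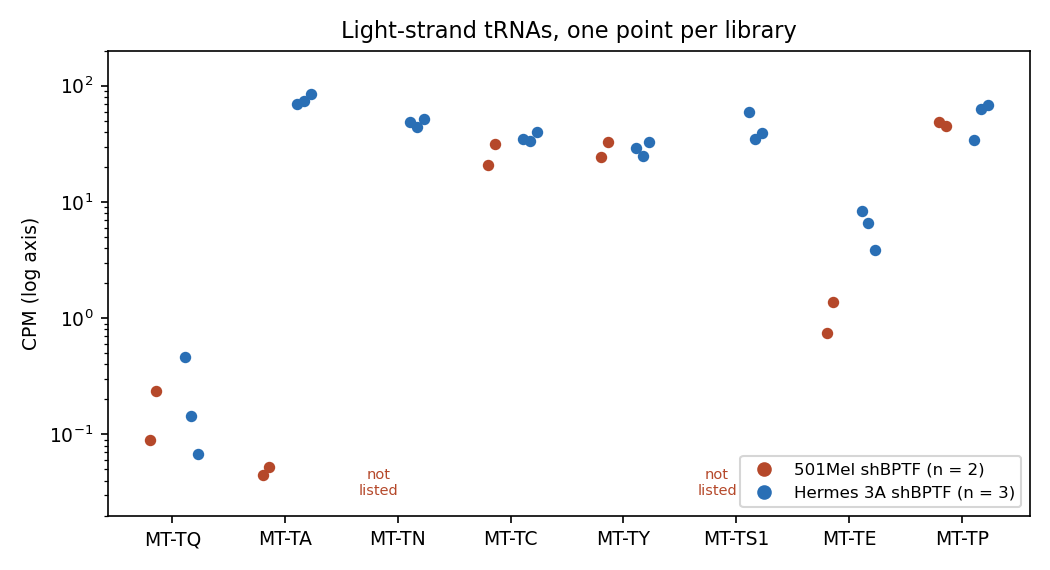
Level (CPM, log axis) of the 8 tRNAs of the light strand in each library of 501Mel shBPTF (n = 2) and Hermes 3A shBPTF (n = 3), in their order along the chromosome. MT-TY and MT-TP overlap between the lines, and MT-TC is somewhat lower in 501Mel without overlap. MT-TA is at 0.0450 and 0.0522 CPM in 501Mel against 69.6 to 85.3 CPM in Hermes 3A. MT-TN and MT-TS1 have no entry for 501Mel.

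Near-identical copies of mitochondrial genes in the nuclear genome can take reads from the members or lend reads to them. The 131 copies with an entry held counts equal to 1.67% and 1.54% of the members' counts in 501Mel and 0.644%, 0.561% and 0.551% in Hermes 3A. Most of the 501Mel counts were on MTCO3P12, a copy of MT-CO3 on chromosome 1, with 25698 and 22918 counts in 501Mel and 15, 31 and 14 in Hermes 3A. All copies of MT-CO3 together had counts equal to 13.9% and 13.3% of those on MT-CO3 in 501Mel and at most 0.0328% in Hermes 3A. For MT-ND6 the copies came to 12.3% and 11.4% in 501Mel and 2.17%, 2.44% and 1.91% in Hermes 3A, and for MT-ATP8 to 7.75% and 7.81% against 3.88%, 4.45% and 3.95%. Of the copies, 12 could be tested, and all 12 were called higher in 501Mel, against 24.2% of all genes tested. With the copies' counts added to the members, an alternative chosen after the values were seen, 20 members were again higher and 3 lower. The median log2 fold change of the 13 mRNAs was then 1.00, against 0.87, and that of MT-ND6 was 0.21, against 0.08. For MT-CO3, MT-ND6 and MT-ATP8 above all, reads of the member and of its copies cannot be told apart here, and the levels of these genes are uncertain. The counts on the copies do not bound this, since the treatment of reads with several matches is not given. Any such reads left uncounted would appear in neither the member nor the copy.

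The nuclear genes that maintain and express mitochondrial DNA were then examined, as a list of 60 names of which 58 were tested. Of these, 21 were higher in 501Mel and 6 lower, with a median log2 fold change of 0.18, against 24.2% and 24.0% of all genes and a median of 0.02. The number called higher was 11 without 501Mel replicate 1, 12 without Hermes 3A replicate 2 and 11 without Hermes 3A replicate 3. Of all genes, these fits called 2864 of 18725, 3271 of 17485 and 3178 of 17634 higher. The list thus stood nearer to all genes there than with all libraries. It had 17 called higher without 501Mel replicate 2 and 26 without Hermes 3A replicate 1. Among 9 genes of transcription, TFAM, which packs mitochondrial DNA and starts its transcription, was the only one called. It had 8973 and 6141 counts in 501Mel and 2401, 2427 and 1842 in Hermes 3A, a log2 fold change of 1.58 ± 0.15 (adjusted p = 0.000246). POLRMT, the mitochondrial RNA polymerase, had 88.4 and 82.5 against 74.7, 45.002 and 44.2 CPM and a log2 fold change of 0.65 ± 0.24 (adjusted p = 0.0620).

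Of 16 genes of replication and nucleotide supply, 8 were higher and 2 lower, against 24.2% and 24.0% of all genes tested. TWNK, the replicative helicase, was higher by 1.21 (adjusted p = 0.00282), and PRIMPOL, SLC25A36 and DGUOK, the last a kinase of deoxynucleosides, by 1.09, 1.08 and 0.96. TK2, the mitochondrial thymidine kinase, and RRM2B, a subunit of ribonucleotide reductase, had log2 fold changes of -1.14 and -0.93. Of 33 genes for RNA processing and stability, 12 were higher and 4 lower, against the same shares of all genes. TRMT10C, a subunit of the enzyme that cuts the 5′ ends of the tRNAs, was higher by 1.13 (adjusted p = 0.00166), whereas its partners HSD17B10 and PRORP had log2 fold changes of 0.006 (adjusted p = 0.983) and -0.92 (adjusted p = 0.0924) and ELAC2, which cuts the 3′ ends, was lower (-0.57, adjusted p = 0.0117). Also higher were FASTKD3, FASTKD2, GRSF1 and TRMU, which act on mitochondrial RNA, with 1.48, 1.21, 1.00 and 0.96. REXO2, which degrades short RNAs, had a log2 fold change of -1.10 (adjusted p = 0.00196). LRPPRC and SLIRP, partners that stabilise the heavy-strand mRNAs, had log2 fold changes of 0.45 (adjusted p = 0.0824) and -0.20 (adjusted p = 0.412). Of 6 transcriptional coactivators and factors of mitochondrial biogenesis, 4 were higher and 1 lower, against 24.2% and 24.0% of all genes tested. PPARGC1A, a coactivator of respiratory genes, had 2666 and 3539 counts in 501Mel and 396, 293 and 246 in Hermes 3A, a log2 fold change of 3.16 ± 0.25 (adjusted p = 0.000129).

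The nuclear-encoded subunits that are assembled with the mitochondrial ones did not share their direction. Of 73 tested, 9 were higher in 501Mel and 31 lower, with a median log2 fold change of -0.35, against 24.2% higher, 24.0% lower and a median of 0.02 for all genes tested, while the 13 mitochondrial mRNAs had a median of 0.87. The number called lower was 15 without 501Mel replicate 1, where 3195 of all 18725 genes tested were called lower. The excess over all genes was thus smaller in that fit. It was between 23 and 30 when any other library was left out, where 3360 to 4687 of all genes were called lower. The lists of single complexes are short. Some of their shares, such as 2 of 9 higher in complex III and 6 of 17 lower in complex V, are not far from those of all genes. In complex I, 5 of 36 nuclear subunits were higher and 16 lower (median -0.37), with NDUFS8 and NDUFS7 of the electron path at -1.31 and -1.24. In complex III, 2 of 9 were higher and 4 lower (median -0.05), with the catalytic subunit UQCRFS1 at -1.21 and UQCRC1 at -0.89. In complex IV none of 11 was called higher and 5 were lower (median -0.35), among them NDUFA4 at -0.79, COX6B1 at -0.65 and COX6A1 at -0.53. In complex V, 2 of 17 were higher and 6 lower (median -0.21), with ATP5F1C at 0.71 and ATP5F1D and ATP5MC3 at -0.93 and -0.82. NDUFV2 and UQCR11 lay far from the rest. NDUFV2, of complex I, had 4571 and 3120 counts in 501Mel and 398, 325 and 231 in Hermes 3A (log2 fold change 3.42, adjusted p = 4.27e-05), and UQCR11, of complex III, had 3349 and 2907 against 42, 55 and 38 (5.94, adjusted p = 6.46e-06). The part of the different gene lists in these values was not tested.

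**Figure D4:**
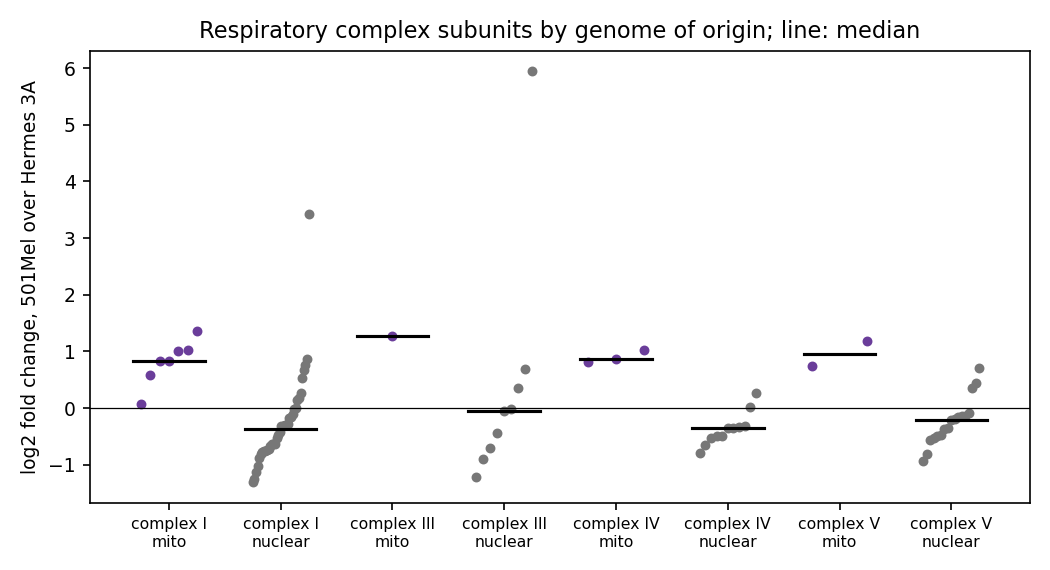
Log2 fold change of 501Mel over Hermes 3A (edgeR) for subunits of respiratory complexes I, III, IV and V, a point per gene, split into mitochondrially encoded (13 in all) and nuclear-encoded (73 in all) subunits, with the median as a line. On the scale of all counts, the mitochondrial medians lie above 0 in every complex and the nuclear medians below 0, at -0.37, -0.05, -0.35 and -0.21.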

How the data were processed

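Total RNA was sequenced from 2 501Mel and 3 Hermes 3A shBPTF libraries, grouped by cell line and replicate as labelled. Per the labels, RNA was depleted of rRNA with RiboMinus probes, fragmented, copied to cDNA and treated with duplex-specific nuclease. The authors deposited whole-number read counts per gene, without normalization. Per the submitters' processing notes, CASAVA 1.8, TopHat 1.4.1, Bowtie 0.12.7 and hg19 were used. The counting program, annotation release, strand setting and treatment of reads with several matches are not given in the sources used here, and the authors' method sections name no test. Multiply matching reads decide how counts are split between mitochondrial genes and their nuclear copies.

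Gene names, positions and tRNA sequences are those of GENCODE 29 on GRCh38, another build than hg19, and 36899 of 40263 identifiers had a name there. The lines were set against each other in edgeR 4.0.16 with TMM, filterByExpr, no covariate and the quasi-likelihood test (R 4.3.3), on genes listed in all 5 files, which held from 99.3% to 99.9% of a library's counts, and calls were made where the p-value, adjusted by Benjamini-Hochberg over all 17975 genes tested, was under 0.05. A count of 3 equals 0.0675 to 0.101 CPM. Shares of raw counts were compared with exact permutation tests (scipy 1.17.1). Differences between replicates exceeded counting noise, with a chi-square per gene of at least 19.1, so no libraries were merged. Alternatives were DESeq2 1.42.0, other library sizes, no low-count filter, a replicate block and leaving out each library. Counts over the genes listed in all files as the base of the shares, counts of nuclear copies added to the members, and tRNA sums without genes unlisted for 501Mel or without MT-TA, were alternatives chosen after the values were seen. All members were named, except that tRNAs with few counts were given by range, together with genes set by name and the called genes of largest fold change in each list. Members and lists were chosen with earlier results of these data known.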

Additional observations from a re-analysis of the deposited data

Results flagged for a closer look

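Counts were present for members outside the comparison of the lines. MT-TN, with no entry for 501Mel, had at least 1538 counts in every Hermes 3A library, and MT-TS1, likewise without an entry, had at least 1161. MTCO3P12, the copy of MT-CO3 on chromosome 1, which is no member, had at least 22918 counts in each 501Mel library and at most 31 in Hermes 3A. Groups of 2 and 3 libraries are too small for a search for single outlying libraries.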

How the results depend on the processing

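For single members, 210 of 231 values under settings other than the mitochondrial pool and the removal of a library kept direction and side of the threshold, 9 lost their call, 9 gained one and 3 reversed. The 3 were MT-TY without TMM (0.052) and, with a replicate block, MT-TY (0.076) and MT-TP (0.015), all within their standard errors of 0. The replicate block called 12 members, 12 heavy-strand transcripts and 5 mRNAs higher, against 20, 20 and 10. The mRNAs whose call it ended were MT-CO1, MT-CO2, MT-CO3, MT-ATP8 and MT-ND4L. Of all 17975 genes tested, it called 3627 higher, against 4354. Same-numbered libraries of the lines correlated at 0.105 and 0.121 in their deviations from the line's mean, but with only 2 such pairs and no label of a shared batch they were not treated as paired. With the 13 mRNAs as library size, 4 members, 4 heavy-strand transcripts and 0 mRNAs were higher, 7 members and 6 light-strand transcripts were lower, and MT-CO1 (-0.044), MT-ATP8 (-0.18), MT-CO3 (-0.12), MT-ND4L (-0.059), MT-ND4 (-0.060), MT-ND5 (-0.32) and MT-ND6 (-0.82) reversed, since the scale then follows these genes. On that scale 1616 of all 17975 genes tested were called higher and 9144 lower. With unlisted genes entered as 0 counts, 5 members and 4 light-strand transcripts were lower, against 3 and 2, as MT-TN and MT-TS1 then entered the test. Leaving out each library in turn gave 8 to 23 members, 8 to 23 heavy-strand transcripts and 3 to 12 mRNAs called higher, 2 to 3 members, 0 to 1 heavy-strand and 2 to 3 light-strand transcripts called lower, 11 to 26 genes of mitochondrial DNA maintenance and expression called higher (21 with all libraries; 11 without 501Mel replicate 1, 12 without Hermes 3A replicate 2 and 11 without Hermes 3A replicate 3), 15 to 30 nuclear subunits called lower, and 2864 to 4595 of all genes called higher, lowest without 501Mel replicate 1. Of all genes, 3195 to 4687 were called lower in these fits, the fewest without 501Mel replicate 1. MT-ND6 ranged from -0.067 to 0.25 and MT-TY from -0.25 to 0.17 on the log2 scale when each library was left out. The differences in the share of all members, mRNAs and rRNAs and the lower part of MT-ND6 in the mRNA pool kept their direction in every alternative run. The difference in the tRNA share, -0.0118 percentage points, was -0.00275 over the tRNAs listed in all files and 0.00472 without MT-TA as well, since 3 genes carry it. For members with under about 10 counts in a line, MT-TA, MT-TK, MT-TQ and MT-TD, the level in that line is imprecise. The cause of these low counts, and of the other changes given here, was not tested.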
